A study of Mus musculus with 12 samples.

Results

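The genes described here make or sense prostaglandins and leukotrienes, the lipid mediators that cells derive from arachidonic acid. The list held 10 genes, named by their function with earlier results of these arrays in view, and 9 of them carried a probe set with a single gene symbol, out of 19938 genes measured. Ptgs1, the constitutive cyclooxygenase, was matched to no such probe set and was not analysed here. Members were chosen by symbol, and a probe set was to be selected on its highest mean log2 value over the 12 arrays, but each of the 9 genes had just 1 probe set. That rule used no difference between groups, but the difference of Ptgs2 between MHC-II classes was known when the list was drawn up, so it is given as a description of these arrays and not as independent evidence.

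The arrays came from 4 groups of cells sorted from the skin of untreated wild-type C57BL/6 mice kept specific-pathogen-free, with 3 arrays in each group: MHC-II-positive melanophages, MHC-II-negative melanophages, MHC-II-positive macrophages and MHC-II-negative macrophages. Melanophages are macrophages filled with ingested melanin. All 4 gates shared positive staining for CD11b and CD64 and lacked CD24, CCR2 and Ly6C. Melanophages were taken at a high side scatter, while the labels of macrophages contradict each other on it, high in the titles and low in the phenotype, so groups are defined here by the named cell kind and MHC-II class. The labels give neither the age and sex of the mice nor whether cells of several mice were pooled or the arrays stand for different mice. A p-value here therefore reflects the spread among these arrays alone, and that spread may be technical.

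Cytosolic phospholipase A2 frees arachidonic acid from membranes. Cyclooxygenases turn it into prostaglandin H2, which terminal synthases convert to prostaglandin E2, prostaglandin D2 or thromboxane, while 5-lipoxygenase and its activating protein start the route to leukotrienes. Macrophages are a well-known source of these mediators, and in skin prostaglandin E2 and prostaglandin D2 take part in inflammation and its resolution.

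Markers of the labelled cell type were present, but RNA of 2 proteins that the gates excluded was present too. Of 8 macrophage markers 7 were measured, with Cd68 the brightest, none of them lay near the array medians in any group, and their mean log2 level lay between 8.24 and 8.92 on the 12 arrays. Ccr2 RNA went against the CCR2-negative gate in the MHC-II-positive cells, where its log2 level was 6.49 to 7.20 in melanophages and 6.69 to 7.70 in macrophages, against 3.10 to 3.72 and 3.68 to 4.15 in the MHC-II-negative cells of the same kinds. Cd24a RNA went against the CD24-negative gate in the same cells, with 4.14 to 4.70 in MHC-II-positive melanophages and 5.42 to 6.83 in MHC-II-positive macrophages, against 2.38 to 3.83 and 3.61 to 4.84 in the MHC-II-negative ones. Array medians over all probe sets lay between 2.97 and 3.08, and a gene is said to lie near them when it lies less than 1 above the highest of them. The arrays farthest from their group mates were both of macrophages, replicate 1 of the MHC-II-negative and replicate 3 of the MHC-II-positive cells, whose differences from the mean of their mates had SDs of 0.406 and 0.356 over all genes, against 0.241 to 0.311 for the others.

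Ptgs2, the inducible cyclooxygenase, was the member that separated the groups most. MHC-II-positive cells of both kinds held more of it than their MHC-II-negative counterparts, 9.59-fold in melanophages and 4.32-fold in macrophages. In sorted bulk cells, fewer cells of a type and less RNA per cell cannot be told apart. Hpgds, the haematopoietic synthase of prostaglandin D2, lay the other way between MHC-II classes, lowest in MHC-II-positive macrophages and highest in MHC-II-negative melanophages, but its differences did not pass the test. Alox5ap, the activating protein of 5-lipoxygenase, lay at nearly the same level in all 4 groups, and Ptges, a synthase of prostaglandin E2, lay near the array medians in all of them.

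**Figure D1:**
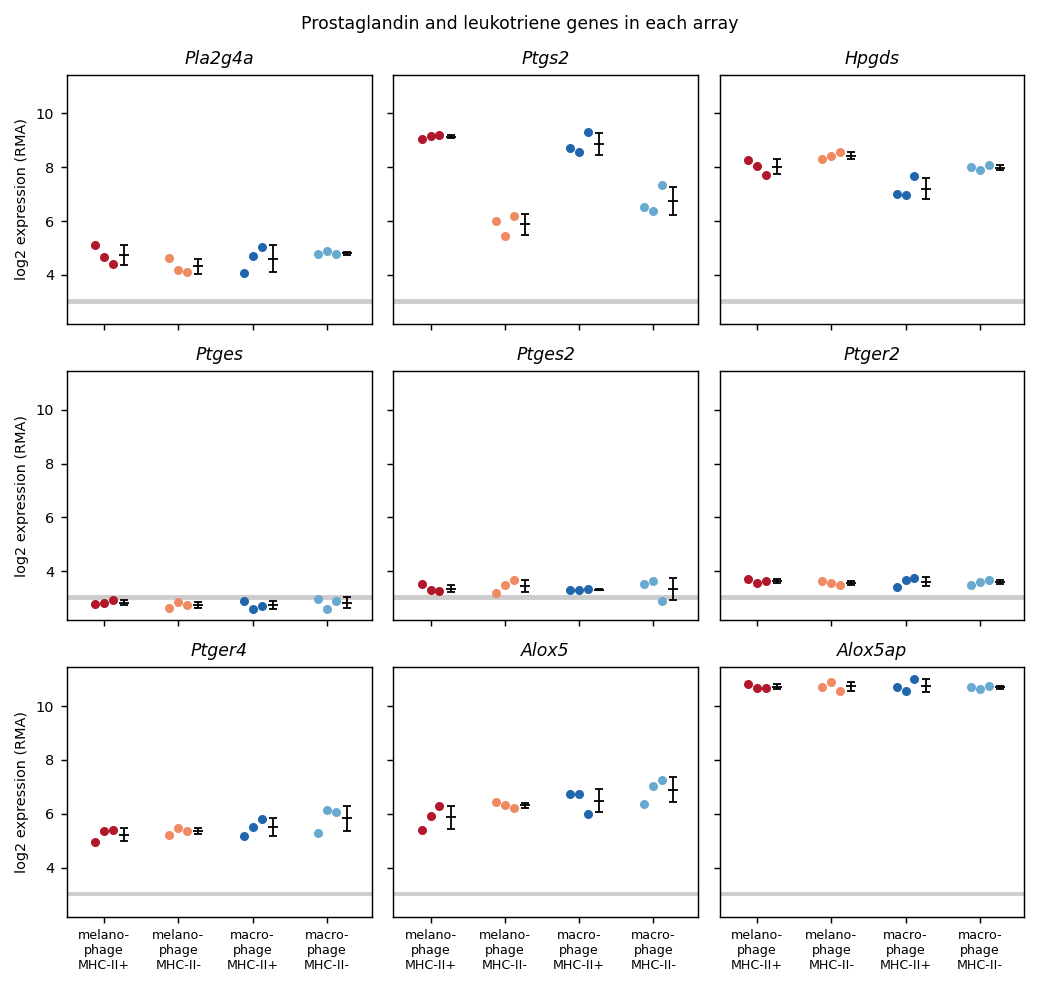
Log2 expression (RMA) of the 9 measured genes. Each coloured point is 1 array, the black bar beside it is the group mean with its SD (n = 3), and the grey band spans the array medians. Ptgs2 lies between 8.55 and 9.32 in the MHC-II-positive cells and between 5.44 and 7.34 in the MHC-II-negative cells.

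Pla2g4a encodes cytosolic phospholipase A2, which releases arachidonic acid. Its log2 level was 5.13, 4.67 and 4.39 on the 3 arrays of MHC-II-positive melanophages and 4.64, 4.20 and 4.12 in MHC-II-negative melanophages. In macrophages it was 4.06, 4.71 and 5.04 in MHC-II-positive cells and 4.79, 4.87 and 4.76 in MHC-II-negative cells. The arrays of neighbouring groups overlapped throughout the order of means, and MHC-II-negative melanophages, the lowest group, overlapped with all but MHC-II-negative macrophages. Of all genes 3.91% had arrays apart in that direction. The difference between melanophages and macrophages in the MHC-II-negative class was -0.49 ± 0.25 (SE; limma adjusted p = 0.949), and no comparison called the gene.

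Ptgs2 had log2 levels of 9.06, 9.14 and 9.20 on the 3 arrays of MHC-II-positive melanophages, against 6.00, 5.44 and 6.18 in MHC-II-negative melanophages. It had 8.70, 8.55 and 9.32 in MHC-II-positive macrophages, against 6.54, 6.36 and 7.34 in MHC-II-negative macrophages. Every MHC-II-positive array lay above every MHC-II-negative array of either kind. Over all genes such a separation within kind, towards higher, was found for 5.12% in melanophages, for 4.96% in macrophages and for 1.11% in both. Averaged over cell kind the gene rose by 2.69 ± 0.20 in MHC-II-positive cells, a 6.44-fold difference (limma adjusted p = 9.83e-05). Within melanophages the difference was 3.26 ± 0.28 (adjusted p = 0.000857) and within macrophages 2.11 ± 0.28 (adjusted p = 0.0079). The sample titles carry codes that fall into 3 runs of consecutive numbers, each with 1 array of every group. Within these runs the difference in melanophages was 3.06, 3.70 and 3.02, and in macrophages 2.16, 2.18 and 1.99.

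Among the 9 genes Ptgs2 was the only one called between MHC-II classes, averaged over cell kind or within either kind. Over all genes limma called 0.762% in the averaged comparison, 0.632% higher and 0.13% lower. It called 0.211% within melanophages, 0.201% higher and 0.01% lower, and 0.341% within macrophages, 0.311% higher and 0.0301% lower. The median difference of the 9 genes in the averaged comparison was 0.01, against -0.02 over all genes, and 5 of the 9 differences lay above 0. The call within macrophages rested on the spread shared by all 4 groups. With only the 6 arrays of macrophages in the fit it missed the threshold (2.11 ± 0.31, adjusted p = 0.137), and without both macrophage arrays that stood apart it did so too (1.77 ± 0.31, adjusted p = 0.0668).

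The order of Ptgs2 between the cell kinds turned with MHC-II class, but no test called it. In MHC-II-negative cells the 3 arrays of melanophages lay below the 3 of macrophages, with a difference of -0.87 ± 0.28 (adjusted p = 0.671). An array separation of this direction was found for 3.91% of all genes. In MHC-II-positive cells the arrays of the cell kinds overlapped and the difference was 0.28 ± 0.28 (adjusted p = 0.938). The interaction, which sets the MHC-II difference of melanophages against that of macrophages, was 1.15 ± 0.40 (unadjusted p = 0.015, adjusted p = 1). Over all genes limma called 0% in the interaction, with 820 genes at an unadjusted p under 0.05.

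Some genes of other cell types moved with MHC-II class beside Ptgs2. Of 9 markers of dendritic and Langerhans cells all 9 lay higher in MHC-II-positive cells averaged over cell kind, and Cd207, Ccr7, Ccl22 and Itgax were called, by 1.20 ± 0.15, 1.97 ± 0.27, 2.19 ± 0.14 and 1.26 ± 0.11. Within melanophages 7 of the 9 lay above 0 and 1, Ccl22, was called, and within macrophages all 9 lay above 0 and 3 were called, Cd207, Ccl22 and Itgax. Cd207, the Langerhans cell lectin, differed by 0.36 ± 0.21 within melanophages and by 2.04 ± 0.21 within macrophages. The log2 mean of Ccl22 was 5.02 in MHC-II-positive against 3.01 in MHC-II-negative melanophages, and 5.37 against 3.00 in macrophages. In the same order that of Ccr7 was 6.24 against 4.42 and 6.60 against 4.48. That of Itgax was 4.03 against 3.41 and 5.47 against 3.56. The mean log2 level of the 9 was 3.79 to 3.96 in MHC-II-positive melanophages, against 3.04 to 3.25 in MHC-II-negative melanophages, and 4.40 to 4.66 in MHC-II-positive macrophages, against 3.26 to 3.35 in MHC-II-negative macrophages. In MHC-II-positive melanophages 6 of the 9 lay near the array medians, and in MHC-II-positive macrophages 4 did. Among 5 measured monocyte markers 3 lay above 0 averaged over cell kind, 2 within melanophages and 3 within macrophages. Over all genes the shares were 40.2%, 44.3% and 42.2%. Ccr2 was called higher (3.23 ± 0.20, limma adjusted p = 3.93e-05). The brightest, F13a1, was not called and lay the other way in both kinds. Its log2 mean was 8.79 in MHC-II-positive against 9.24 in MHC-II-negative melanophages, and 9.42 against 9.79 in macrophages. The part of dendritic cells, Langerhans cells and monocytes in the Ptgs2 difference was not tested. Of 13 measured immediate early genes, with Ier3 the brightest, which respond to cell handling as Ptgs2 can, limma called 0 between MHC-II classes. Of all genes it called 0.762%. An unadjusted p under 0.05 was found for 2 of the 13, against 9.23% of all genes. Of the 13 differences 5 lay above 0, against 40.2% of all genes. The part of cell handling in the Ptgs2 difference was not tested for these 13 genes. The mean log2 level of the 13 was 8.31 to 8.68 and 8.48 to 9.01 in MHC-II-positive melanophages and macrophages, against 8.50 to 8.62 and 8.67 to 9.12 in the MHC-II-negative cells of the same kinds.

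The genes whose values followed Ptgs2 most closely over the 12 arrays were ranked, leaving out predicted genes with Gm or Rik names. They were Adgre4, an adhesion receptor of myeloid cells (Pearson r = 0.965), Flrt3, a membrane protein of cell adhesion (0.956), the histone gene H2az1 (0.947) and the MHC class II genes H2-Eb1 (0.946) and H2-Ab1 (0.945). The MHC-II protein was what the sort used, and all 12 points share 4 groups, so the points are not independent. Flrt3 differed between MHC-II classes by 1.47 ± 0.11 and Adgre4 by 0.98 ± 0.10, averaged over cell kind. Both were picked for following Ptgs2 on these same arrays, so a difference between MHC-II classes followed from the choice. It is no separate evidence.

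The RefSeq promoters of Ptgs2, the member that was called, and of Hpgds, the member with the next largest span of group means, are shown, 250 bases before to 50 after the annotated start in assembly GRCm38.p6, with capitals for every motif match. The Ptgs2 window is chr1:150099781-150100080 on the plus strand and the Hpgds window chr6:65144681-65144980 on the minus strand.
Ptgs2: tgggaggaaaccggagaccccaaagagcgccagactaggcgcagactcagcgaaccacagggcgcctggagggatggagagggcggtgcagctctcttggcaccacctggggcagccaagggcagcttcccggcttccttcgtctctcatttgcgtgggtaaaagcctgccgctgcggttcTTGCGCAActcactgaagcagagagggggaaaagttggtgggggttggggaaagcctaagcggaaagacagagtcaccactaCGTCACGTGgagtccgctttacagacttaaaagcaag
Hpgds: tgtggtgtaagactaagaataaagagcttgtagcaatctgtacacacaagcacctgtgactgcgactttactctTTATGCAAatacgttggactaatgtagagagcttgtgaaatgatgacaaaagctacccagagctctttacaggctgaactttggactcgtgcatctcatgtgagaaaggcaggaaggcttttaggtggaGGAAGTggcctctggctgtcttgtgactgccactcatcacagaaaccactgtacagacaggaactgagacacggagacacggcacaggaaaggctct
The motifs searched on both strands were the TATA box as TATAAA, the E-box as CACGTG, the half-site of the cyclic AMP response element as TGACG, the AP-1 site as TGANTCA, the C/EBP site as TTGCNNAA, the ETS site as GGAAGT and an NF-kB site. The Ptgs2 window held a C/EBP match that reads on both strands at bases 182 to 189, and an E-box at bases 267 to 272 that overlaps a cyclic AMP half-site on the minus strand at bases 264 to 268. The Hpgds window held a C/EBP match on the minus strand at bases 75 to 82 and an ETS match at bases 204 to 209. Of 32851 promoter windows of the same length, 10.8% held the C/EBP letters, 7.15% the E-box, 20.8% the half-site, 23.8% the ETS letters, 13.6% the TATA box, 7.81% the AP-1 site and 0.411% the NF-kB site. A match describes letters only.

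Hpgds had log2 levels of 8.27, 8.06 and 7.72 on the arrays of MHC-II-positive melanophages, against 8.32, 8.41 and 8.57 in MHC-II-negative melanophages. In macrophages it had 7.0, 6.96 and 7.66 in MHC-II-positive cells, against 7.99, 7.89 and 8.07 in MHC-II-negative cells. The MHC-II-positive arrays lay below the MHC-II-negative ones in both cell kinds, and melanophages lay above macrophages in both MHC-II classes. MHC-II-positive melanophages and MHC-II-negative macrophages, in the middle of the order, overlapped, and each of the outer groups stood apart from its neighbour. Over all genes such a separation towards higher in melanophages was found for 5.57% in the MHC-II-negative class, for 7.51% in the MHC-II-positive class and for 0.707% in both, and towards lower in melanophages for 3.91%, 4.91% and 0.456%. Towards lower in MHC-II-positive cells it was found for 7.13% within melanophages, for 7.07% within macrophages and for 0.762% in both.

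Hpgds differed between melanophages and macrophages by 0.63 ± 0.13, averaged over MHC-II class, a ratio of 1.55 that did not pass (limma adjusted p = 0.166, unadjusted p = 0.000747). Between MHC-II-positive and MHC-II-negative cells it differed by -0.60 ± 0.13, averaged over cell kind (adjusted p = 0.0935, unadjusted p = 0.00109). Whether these differences passed depended on single arrays and, between MHC-II classes, on the variance model, since with array weights and all 12 arrays that difference was called (-0.64 ± 0.12, adjusted p = 0.0385). Without replicate 3 of MHC-II-positive macrophages, whose level of 7.66 lay above those of its mates, the differences were 0.74 ± 0.10 (adjusted p = 0.0358) and -0.71 ± 0.10 (adjusted p = 0.0099). In that fit Hpgds was also called in the MHC-II-positive class (1.03 ± 0.15, adjusted p = 0.0471) and within macrophages (-1.0 ± 0.15, adjusted p = 0.0207). With all 12 arrays none of these narrower comparisons passed. Melanophages differed from macrophages by 0.81 ± 0.19 in the MHC-II-positive class (adjusted p = 0.374) and by 0.45 ± 0.19 in the MHC-II-negative class (0.844). MHC-II-positive cells differed from MHC-II-negative ones by -0.77 ± 0.19 within macrophages (0.181) and by -0.42 ± 0.19 within melanophages (0.88). The interaction with all 12 arrays was 0.36 ± 0.27 (adjusted p = 1).

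**Figure D2:**
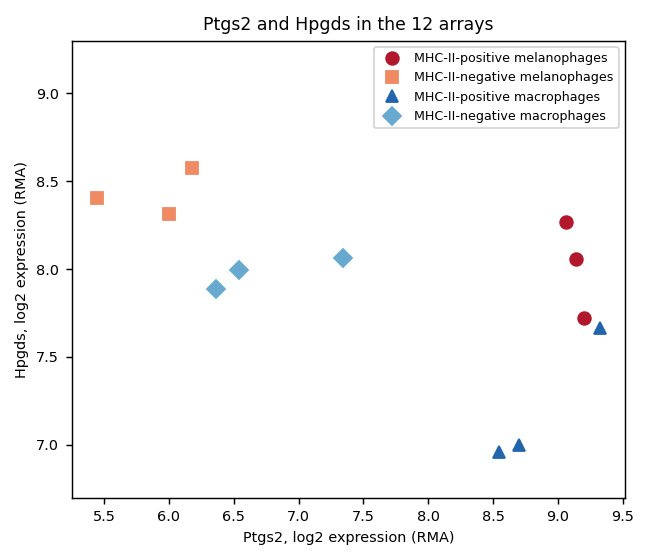
Ptgs2 (horizontal) against Hpgds (vertical), both as log2 expression (RMA), with 1 point for each of the 12 arrays and a colour and shape for each group. MHC-II-positive arrays lie at the right, and within each cell kind they lie lower on the vertical axis than the MHC-II-negative arrays.

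Mast cells also make prostaglandin D2 through Hpgds, and the arrays held RNA of some mast cell genes. Of 10 mast cell markers limma called 0 between MHC-II classes and 0 between the cell kinds, with 3 and 2 at an unadjusted p under 0.05, and 8 or 9 of the 10 lay near the array medians in each group. Their mean log2 level was 3.23 to 3.75 in MHC-II-positive and 3.25 to 3.92 in MHC-II-negative melanophages, and 3.15 to 3.45 in MHC-II-positive and 3.62 to 3.89 in MHC-II-negative macrophages. The protease gene Mcpt4 was the brightest of them, with 4.94 to 6.80 and 4.99 to 7.86 in MHC-II-positive and MHC-II-negative melanophages and 4.92 to 5.98 and 6.55 to 6.93 in the corresponding macrophages. It differed by -0.01 ± 0.47 between melanophages and macrophages and by -0.73 ± 0.47 between MHC-II classes, and within macrophages its MHC-II-positive arrays lay below the MHC-II-negative ones, as those of Hpgds did. Averaged over cell kind, 9 of the 10 markers lay lower in MHC-II-positive cells, as Hpgds did, and 40.2% of all genes lay higher there. Between melanophages and macrophages 4 of the 10 lay above 0 averaged over MHC-II class, against 54.8% of all genes. In the MHC-II-positive class 7 of the 10 did, against 54.2%, and in the MHC-II-negative class 2 did, against 52.4%. Hpgds lay above 0 in both classes, by 0.81 and 0.45. The largest difference of a marker between MHC-II classes was that of the mast cell carboxypeptidase gene Cpa3, with -1.17 ± 0.52 (adjusted p = 0.531). Its log2 level was 3.39 to 6.14 in MHC-II-positive and 3.84 to 6.57 in MHC-II-negative melanophages, which overlapped, and 3.24 to 4.11 in MHC-II-positive and 5.18 to 6.12 in MHC-II-negative macrophages, which did not. Of all genes 7.07% had arrays apart within macrophages in the direction of Mcpt4 and Cpa3. Cpa3 was chosen after its values were seen. The part of mast cells in the Hpgds differences was not tested.

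Ptges and Ptges2 encode synthases of prostaglandin E2. The log2 level of Ptges lay between 2.60 and 2.99 on the 12 arrays and that of Ptges2 between 2.89 and 3.67, near the array medians, so neither a level nor a difference could be read from them. The group means of Ptges spanned 0.10 and those of Ptges2 0.14, and neighbouring groups overlapped throughout. Ptges3, a prostanoid synthase gene outside the members, was named after its values were seen and lay well above the array medians. Its log2 means were 10.12 in MHC-II-positive and 10.19 in MHC-II-negative melanophages, and 9.96 and 10.22 in the corresponding macrophages. No comparison called it.

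Ptger2 and Ptger4 encode receptors of prostaglandin E2 that raise cyclic AMP. Ptger2 lay between 3.42 and 3.74 on the 12 arrays, near the array medians. Ptger4 lay above them, with log2 means of 5.23 ± 0.25 in MHC-II-positive and 5.36 ± 0.13 in MHC-II-negative melanophages, and 5.51 ± 0.32 in MHC-II-positive and 5.83 ± 0.47 in MHC-II-negative macrophages (SD, n = 3). The arrays of all neighbouring groups overlapped. The difference of Ptger4 between melanophages and macrophages, averaged over MHC-II class, was -0.37 ± 0.17 (adjusted p = 0.655, unadjusted p = 0.0455).

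Alox5 encodes 5-lipoxygenase, the first enzyme of leukotriene synthesis. Its log2 level was 5.42, 5.93 and 6.28 in MHC-II-positive and 6.42, 6.31 and 6.23 in MHC-II-negative melanophages. In macrophages it was 6.72, 6.75 and 6.01 in MHC-II-positive and 6.37, 7.05 and 7.26 in MHC-II-negative cells. Both means of melanophages lay below those of macrophages, but the arrays of the cell kinds overlapped in each MHC-II class. The averaged difference was -0.59 ± 0.20 with a 95% interval of -1.03 to -0.16 (adjusted p = 0.476, unadjusted p = 0.0124). Between MHC-II classes it was -0.43 ± 0.20 (adjusted p = 0.558). Among the other 8 genes Ptger4 followed Alox5 most closely over the 12 arrays (r = 0.673), as a description of arrays that share 4 groups.

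Alox5ap encodes the membrane protein that presents arachidonic acid to 5-lipoxygenase. Its log2 level was 10.82, 10.68 and 10.66 in MHC-II-positive and 10.72, 10.91 and 10.56 in MHC-II-negative melanophages, and 10.69, 10.57 and 11.02 in MHC-II-positive and 10.72, 10.63 and 10.74 in MHC-II-negative macrophages. The group means spanned 0.06 and all neighbouring groups overlapped. The 95% interval of the difference was -0.20 to 0.19 between melanophages and macrophages and -0.17 to 0.22 between MHC-II classes, each averaged over the other factor.

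**Figure D3:**
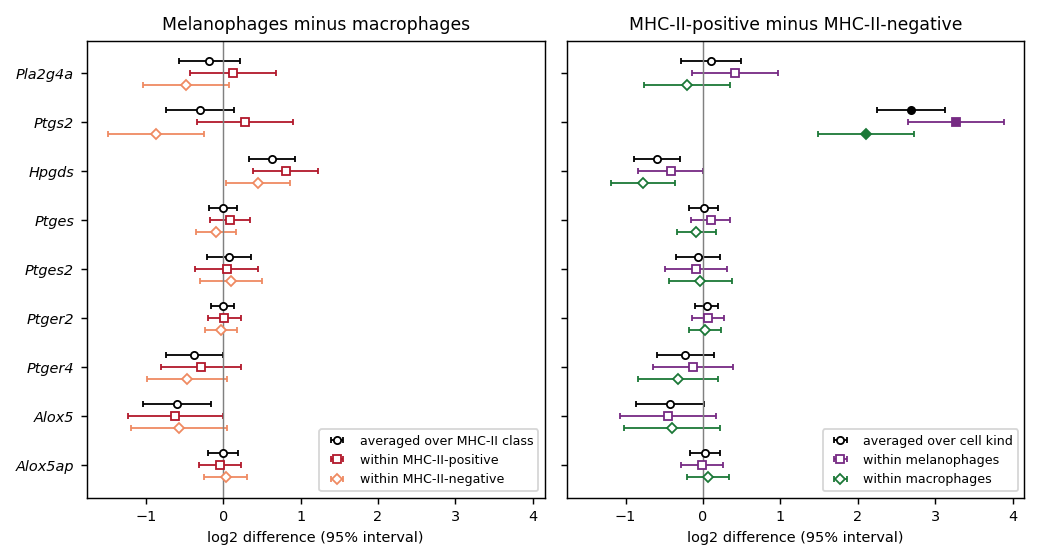
Log2 differences of the 9 genes with 95% intervals, for melanophages minus macrophages (left) and MHC-II-positive minus MHC-II-negative cells (right), averaged (circles) and within each class or kind (squares and diamonds). Filled symbols passed an adjusted p of 0.05 over all genes, which only Ptgs2 did, in all 3 comparisons of MHC-II class.

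Between melanophages and macrophages limma called 0 of the 9 genes averaged over MHC-II class, where it called 0.12% of all genes, 0.0552% higher and 0.0652% lower. It called 0 of 9 within the MHC-II-negative class, against 0.00502% of all genes, and 0 of 9 within the MHC-II-positive class, against 0.015%. An unadjusted p under 0.05 was found for 3, 2 and 1 of the 9, against 7.52%, 5.65% and 6.3% of all genes. The median difference of the 9 in the averaged comparison was -0.01, against 0.01 over all genes, and 2 of the 9 lay above 0. Of other cells' genes, Cd207 and Itgax of the dendritic and Langerhans list were called lower in melanophages, averaged over MHC-II class (-1.16 ± 0.15 and -0.80 ± 0.11, adjusted p = 0.0262 and 0.0404). Of that list 2 were called in the MHC-II-positive class and 0 in the MHC-II-negative class. The log2 mean of Cd207 was 3.17 against 5.17 in the MHC-II-positive class and 2.81 against 3.13 in the MHC-II-negative class. That of Itgax was 4.03 against 5.47 and 3.41 against 3.56. Of the 13 immediate early genes 1 lay above 0, against 54.8% of all genes, with 0 called and 4 at an unadjusted p under 0.05. The part of either list in the members' differences was not tested. The lists of neutrophil, keratinocyte, fibroblast, endothelial, T cell and melanocyte markers, whose brightest genes were S100a8, Krt10, Dcn, Egfl7, Thy1 and Mitf, held 0 calls in either averaged comparison. Of 9 neutrophil markers 4 had an unadjusted p under 0.05 between the cell kinds and 2 between MHC-II classes, against 7.52% and 9.23% of all genes. In each other of these lists 0 or 1 gene had such a p. Between the cell kinds 4 of the 9 neutrophil markers lay above 0, against 54.8% of all genes. So did 7 of 7 keratinocyte, 6 of 6 melanocyte, 3 of 6 fibroblast, 3 of 6 endothelial and 1 of 5 T cell markers. All 7 keratinocyte and 5 of the 6 melanocyte markers lay near the array medians in each group. Among 5 monocyte markers 0 lay above 0, with 0 called and 2 at an unadjusted p under 0.05. The part of these lists in the members' differences was not tested.

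Beyond the members, 66 other genes of arachidonic acid metabolism were listed by role and 59 were measured, of which 31 lay near the array medians on all arrays. In the averaged comparison of melanophages with macrophages limma called 0 of the 59, with 8 at an unadjusted p under 0.05, against 0.12% and 7.52% of all genes. Between MHC-II classes it called Lpcat2 higher and 58 not, with 13 at an unadjusted p under 0.05, against 0.762% and 9.23% of all genes, and the median difference of the 59 was -0.02, as over all genes.

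Lpcat2 encodes an acyltransferase that rebuilds phosphatidylcholine from its lyso form and makes platelet-activating factor in inflammatory cells. Its log2 level was 5.52 ± 0.29 in MHC-II-positive against 4.37 ± 0.61 in MHC-II-negative melanophages, and 5.98 ± 0.43 in MHC-II-positive against 4.93 ± 0.09 in MHC-II-negative macrophages (SD, n = 3). The gene rose by 1.10 ± 0.21 in MHC-II-positive cells, averaged over cell kind (adjusted p = 0.0419). Its arrays did not overlap in either kind, a separation towards higher found for 1.11% of all genes. The call ended without any 1 of 10 of the 12 arrays (adjusted p of up to 0.116) and without both far macrophage arrays (0.0699). It stood without replicate 1 of MHC-II-negative melanophages (0.0119) or replicate 3 of MHC-II-positive macrophages (0.0351).

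Of the genes that break prostaglandins down, Hpgd, which encodes the dehydrogenase that inactivates prostaglandin E2, had log2 means of 9.22 ± 0.21 in MHC-II-positive and 9.44 ± 0.07 in MHC-II-negative melanophages, and 9.07 ± 0.10 in MHC-II-positive and 9.56 ± 0.05 in MHC-II-negative macrophages (SD, n = 3). Its difference between MHC-II classes was -0.36 ± 0.07 (adjusted p = 0.0613). The arrays of macrophages did not overlap, and those of melanophages did. Of all genes 7.07% had arrays apart towards lower in MHC-II-positive macrophages. Ptgr2, a prostaglandin reductase, differed by 0.40 ± 0.09 between melanophages and macrophages (adjusted p = 0.229).

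Among other prostanoid synthases and receptors limma called none in either averaged comparison. Tbxas1, the thromboxane synthase, differed by -0.51 ± 0.12 between melanophages and macrophages (adjusted p = 0.251), and the carbonyl reductase gene Cbr1 by -0.28 ± 0.23. Pparg, a nuclear receptor of lipid ligands, differed by 0.22 ± 0.17. Ptger3, a receptor of prostaglandin E2, lay near the array medians.

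Among leukotriene genes Ltc4s, the synthase of leukotriene C4, had log2 means of 4.28 ± 0.35 in MHC-II-positive and 4.70 ± 0.57 in MHC-II-negative melanophages, and 4.74 ± 0.29 in MHC-II-positive and 5.96 ± 0.57 in MHC-II-negative macrophages (SD, n = 3). MHC-II-negative macrophages lay above every array of the other groups. Over all genes, arrays stood apart towards lower in MHC-II-positive macrophages for 7.07%, and towards lower in MHC-II-negative melanophages than macrophages for 3.91%. The differences were -0.86 ± 0.24 between melanophages and macrophages (adjusted p = 0.351) and -0.82 ± 0.24 between MHC-II classes (adjusted p = 0.23). Cotl1, an actin-binding protein that also binds 5-lipoxygenase, differed between MHC-II classes by 0.97 ± 0.32 (adjusted p = 0.338). Cysltr1, a receptor of cysteinyl leukotrienes, differed by 0.01 ± 0.18 between MHC-II classes, and Ltb4r1, a receptor of leukotriene B4, lay near the array medians on all arrays, so no difference was read from it.

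Of the phospholipases and their partners, the secreted Pla2g2e differed by 0.51 ± 0.30 between melanophages and macrophages, and Plaa, a phospholipase-activating protein, by 0.33 ± 0.11 between MHC-II classes. The acyltransferase gene Mboat7 lay near the array medians on all arrays, so no difference was read from it. The epoxide hydrolase gene Ephx1 differed by -0.34 ± 0.13 between melanophages and macrophages. None of these passed.

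**Figure D4:**
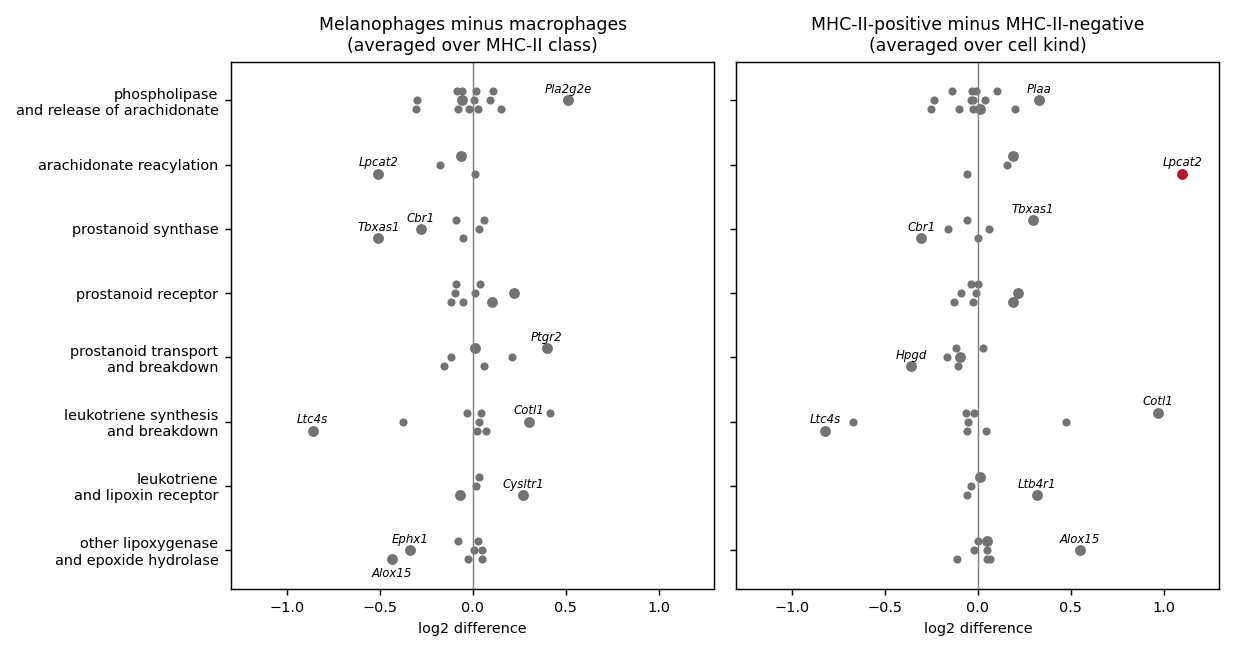
Log2 differences of 59 other genes of arachidonic acid metabolism, by role, for melanophages minus macrophages (left) and MHC-II-positive minus MHC-II-negative cells (right), each averaged over the other factor. Each point is 1 gene, larger points are genes named in the text other than Ptges3 (labelled where the difference is over 0.25 either way), and red marks a gene called over all genes, which was Lpcat2 at 1.10.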

How the data were processed

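Per the labels' protocols, RNA from sorted cells was purified on Qiagen columns, amplified (NuGEN Ovation Pico) and biotinylated before hybridisation. Per the submitters' processing notes, the authors made the deposited log2 values by RMA with oligo in R, of which the sources used here name neither version nor settings. The number of arrays limits the precision.

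Of 35556 probe sets, 21789 carried 1 symbol in the platform annotation, 1621 several and 12146 none, which gave 19938 genes (the probe set with the highest mean where there were several). All 12 arrays were fitted in limma 3.58.1 (R 4.3.3; lmFit, eBayes, 1 mean per group, 8 residual degrees of freedom), and 7 comparisons were tested two-sided. Calls are genes whose p, adjusted by Benjamini-Hochberg across all genes tested, was under 0.05. Differences are log2, with SE of the fit. The fit was tested on simulated data.

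The members and gene lists were chosen with earlier results of these data known. Named genes were all members, called pathway genes and, per role, the 2 pathway genes with the largest averaged difference in size, and the brightest and the called markers of each list. The 5 genes most correlated with a called member were named too, leaving out predicted genes with Gm or Rik names. Cd24a, Cpa3 and Ptges3 were named outside this rule. Alternatives covered 3 scalings, a filter on dim genes, the choice of probe set, the variance model, the arrays in the fit and the code runs as a block.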

Additional observations from a re-analysis of the deposited data

How the results depend on the processing

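In 23 alternative settings, 12 of them leaving out 1 array, 1406 of 1415 differences of the members stayed on their side of the threshold with no call reversed. A change of sign was found 78 times, each time for a difference that was not called. The filter on dim genes kept 8 of the 9 measured genes and dropped Ptges. The largest shift of the median difference of all genes under another scaling was 0.033 on the log2 scale.

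Ptgs2 was called between MHC-II classes, averaged over cell kind, in all 22 settings that gave that comparison (2.52 to 2.83, highest adjusted p = 0.00103) and within melanophages in all 23 (highest adjusted p = 0.00706). Within macrophages it was called in 21 of 23, and 0 members were called there with only the 2 groups in the fit or without both far macrophage arrays. Hpgds was also called between MHC-II classes with array weights, which made 2 members (-0.64, adjusted p = 0.0385), and without both far macrophage arrays, which also made 2 (-0.71, adjusted p = 0.025). Without both it was called between the cell kinds as well, which made 1 (0.75, adjusted p = 0.0359). Leaving out 1 array at a time gave 1 to 2 called members between MHC-II classes averaged over cell kind, 1 to 1 within melanophages, 1 to 2 within macrophages, and 0 to 1 between melanophages and macrophages, both on average and in the MHC-II-positive class. It gave 0 in the MHC-II-negative class and in the interaction. The higher counts all came without replicate 3 of MHC-II-positive macrophages. The Lpcat2 call also ended when every probe set was tested (adjusted p = 0.0836) or with the code runs as a block (0.0996).

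The labels give no replicate numbers, so the runs of title codes, each with 1 array of every group, were the only pairing to try. With the code runs as a block the called members stayed the same, and over all genes 145 were called between MHC-II classes, against 152 without it, and 6 against 1 between the cell kinds in the MHC-II-negative class. Deviations of arrays in 1 run had correlations of -0.25 to 0.27 over 18 pairs. For 36 pairs of arrays of other runs and other groups they were -0.29 to 0.27. The correlations were thus no higher within a run, but the labels do not say what the codes stand for. Whether the runs pair the samples could not be told.

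Over all genes the number called depended more on the setting. Between the cell kinds it was 24, with 1 to 117 over the alternatives, 1 in the MHC-II-negative class, with 0 to 12, and 3 in the MHC-II-positive class, with 0 to 34. Between MHC-II classes it was 152, with 96 to 215, 42 within melanophages, with 19 to 63, and 68 within macrophages, with 27 to 101. In the interaction it was 0, with 0 to 3.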

Other observations

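Alox15, the 12/15-lipoxygenase of some resident macrophages, had log2 levels of 3.31, 3.62 and 4.22 in MHC-II-positive macrophages, above every array of the other groups, and all but the highest of these lay near the array medians. It lay between 2.66 and 2.93 in MHC-II-positive melanophages, 2.71 and 2.76 in MHC-II-negative melanophages and 2.53 and 2.84 in MHC-II-negative macrophages. Of all genes 4.96% had arrays apart towards higher in MHC-II-positive macrophages than in MHC-II-negative ones. In the MHC-II-positive class 4.91% had them apart towards lower in melanophages. The difference between MHC-II classes within macrophages was 1.05 ± 0.19 (limma adjusted p = 0.0571), and the interaction was -1.01 ± 0.27 (unadjusted p = 0.00342, adjusted p = 1).

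Some genes of the pathway varied more between arrays of 1 group than between groups. Cotl1 spanned 6.33 to 8.26 within MHC-II-negative melanophages, and Pla2g2e spanned 3.88 to 5.66 in the same group.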
